A study of Mus musculus with 12 samples.

Results

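BV2 microglia given acacetin after oxygen and glucose deprivation were compared with BV2 microglia that went through the deprivation alone, over all genes. The comparison took 8 of the 12 libraries of the study, 4 labelled Acacetin and 4 labelled OGD, picked by the names of the columns in the count table. The other 4, untreated Control libraries, entered the same fit and are given as a reference. BV2 is an established, immortalised mouse microglial line, so every library comes from a single line grown alone, without neurons, astrocytes or vessels. OGD cells were deprived of oxygen and glucose and then re-oxygenated, which models stroke in culture. The Acacetin group was given acacetin, a flavone made by plants, at 10 µM. Its treatment label names acacetin only; that these cells were first deprived and re-oxygenated is taken from the series' design text. Neither the duration of any step nor the vehicle is given in the labels. Nothing in the labels states that the libraries of a group are separate cultures, so p-values may measure technical spread only.

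Microglia are the resident macrophages of the brain. After ischaemia they release interleukin-1β, a cytokine made as a precursor and cut by the inflammasome, and they turn on interferon-stimulated genes. Type I interferon acts through a receptor on the cell surface, and many of these genes carry interferon-stimulated response elements in their promoters. Metallothioneins are small cysteine-rich proteins that bind zinc and copper, and their genes are switched on by the metal-sensing factor MTF1.

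Depth ran from 16427886 to 32693066 counted reads per library, with OGD 3 the shallowest and Acacetin 2 the deepest. Reads of 18S ribosomal RNA (Rn18s) made up 0.248%, 13.1%, 21.3% and 0.277% of OGD 1 to 4. They made up 0.137%, 0.237%, 1.23% and 1.86% of Acacetin 1 to 4, and 0.144% to 1.85% of the Control libraries. OGD 2 and OGD 3 therefore stood apart by their ribosomal RNA. The slope of log2 expression on log2 gene length, taken within each library relative to the mean of all 12, was -0.213 in Acacetin 1 and 0.296 in Acacetin 3, the lowest and the highest value of the 12. In OGD 1 to 4 it was -0.04, -0.15, -0.08 and 0.17. Results are given below with and without these 2 pairs of libraries. All 10 of 10 myeloid markers passed the filter on low counts. Their summed level was 3598 to 4294 CPM in OGD and 3841 to 4071 CPM in Acacetin, where CPM is the read count scaled to a common library size. Marker sums were scaled by all reads, 18S included, which lowers them for OGD 2 and OGD 3. With TMM-scaled library sizes, the myeloid markers had mean log2 CPM values of 6.958, 6.958, 7.052 and 6.972 for OGD 1 to 4. Values for Acacetin 1 to 4 were 6.822, 6.81, 6.818 and 6.865. On that scale every Acacetin library lay below every OGD library. Marker by marker, 7 of the 10 were lower in Acacetin and 3 were higher, and the groups did not overlap for 1. Their median log2 fold change was -0.13, and -0.06 without OGD 2 and 3. Summed markers of fibroblasts reached at most 0.245 CPM and those of lymphocytes at most 0.244 CPM in these 8 libraries. Neuronal markers summed to 2.80 to 4.71 CPM in OGD and 2.21 to 3.31 CPM in Acacetin, mostly from Tubb3, while Snap25 was at 0 in all 8. Oligodendrocyte markers summed to 70.7 to 104.6 CPM in OGD and 72.8 to 94.4 CPM in Acacetin, mostly from Cnp, with Mbp under 2 CPM. Endothelial markers summed to 19.9 to 47.7 CPM in OGD and 14.1 to 55.8 CPM in Acacetin, mostly from Flt1, with Cldn5 and Tek at or near 0.

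**Figure D1:**
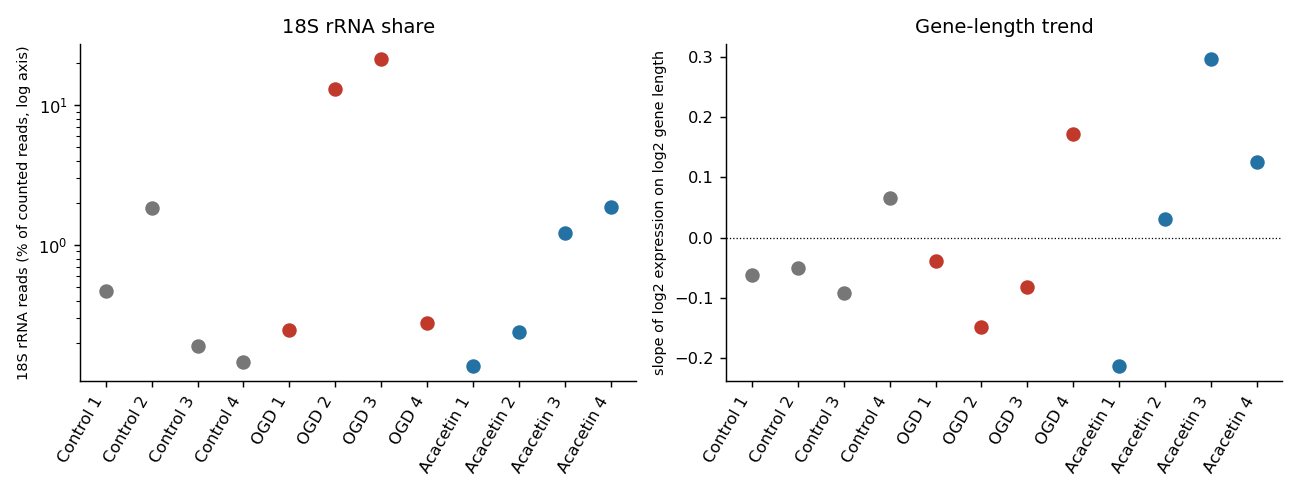
Share of 18S rRNA reads per library (left, percent of counted reads, log axis) and slope of log2 expression on log2 gene length per library (right), with 1 point per library and colours for Control, OGD and Acacetin. OGD 2 and OGD 3 lie at 13.1% and 21.3% of reads, and Acacetin 1 and Acacetin 3 lie at the 2 ends of the length slope.

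Of 13249 genes tested, 0 (0%) were called different between Acacetin and OGD by edgeR's quasi-likelihood test at a Benjamini-Hochberg adjusted p under 0.05. At an unadjusted p under 0.05 there were 685 genes (5.17%), of which 431 (3.25%) were lower in Acacetin and 254 (1.92%) were higher. DESeq2's Wald test on the same counts called 37 genes, 34 lower (0.262%) and 3 higher (0.0231%). Limma's voom with library quality weights, which gives less weight to libraries that fit their group less well, called 30 genes, 28 lower (0.211%) and 2 higher (0.0151%), and 22 genes were called by both. The voom weights were 1.19, 1.08, 3.4 and 0.402 for OGD 1 to 4 and 0.199, 0.846, 0.365 and 1.56 for Acacetin 1 to 4. OGD 3, with 21.3% of its reads from 18S, thus had the highest weight. The smallest adjusted p of the edgeR fit was 0.0686, shared by Il1b, Id3 and Apol9a. All 4 Acacetin libraries lay below all 4 OGD libraries for 249 genes (1.88%) and above them for 62 genes (0.468%). In bulk libraries such as these, fewer cells of a kind and less RNA per cell cannot be told apart.

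The balance of directions moved with the scaling and with single libraries. Of the genes at an unadjusted p under 0.05, 62.9% were lower in Acacetin with TMM scaling, 52.8% with DESeq2's size factors in edgeR, 50.1% without the ribosomal RNA genes and Lars2, and 14.2% on the deposited FPKM values. Without Acacetin 1 there were 1016 lower and 1715 higher genes at that p (37.2% lower), and without OGD 4 there were 548 and 857 (39% lower), so most were then higher. On the log2(FPKM + 1) scale the median of all genes stood at 0.16, against -0.02 on counts, so FPKM values are read here relative to that shift. Across gene length the median log2 fold change went from -0.08 in the shortest quartile of genes (median length 1568 bases) to 0.15 in the longest (median length 10083 bases). Without Acacetin 1 and 3 the same medians were -0.16 and 0.14, and without OGD 2 and 3 they were 0.09 and 0.13, a smaller span. After a smooth length trend was taken out of each library they were -0.01 and 0.02.

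**Figure D2:**
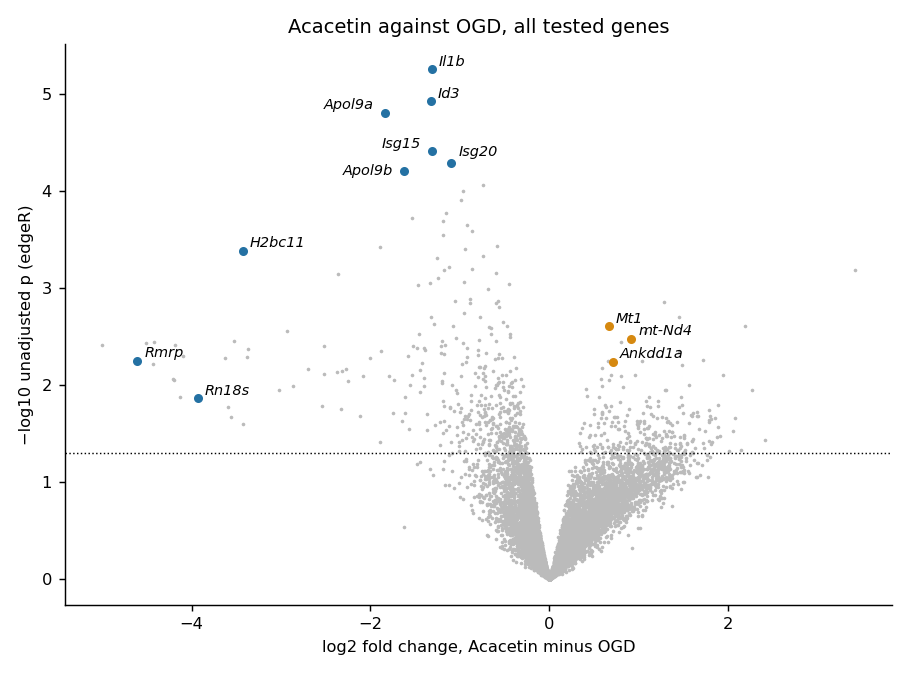
Log2 fold change of Acacetin minus OGD (x axis) against −log10 of the unadjusted edgeR p (y axis) for 13249 genes, with named genes in colour and a dotted line at the unadjusted threshold of 0.05. The genes with the smallest p, Il1b, Id3 and Apol9a, lie on the left, and the genes furthest to the left include Rmrp and Rn18s.

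Il1b (ENSMUSG00000027398.14, chromosome 2), the gene of interleukin-1β, had the smallest p of all genes. It stood at 36.0, 46.9, 44.1 and 35.4 CPM in OGD 1 to 4 and at 17.8, 16.3, 15.7 and 15.4 CPM in Acacetin 1 to 4. No Acacetin library reached the lowest OGD library, and the Acacetin values were close together. The means were 40.6 ± 5.74 CPM (SD, n = 4) in OGD and 16.3 ± 1.07 CPM (SD, n = 4) in Acacetin, against 16.4 ± 4.95 CPM (SD, n = 4) in Control. The log2 fold change was -1.32 ± 0.19 (SE), with an edgeR adjusted p of 0.0686, which did not pass the threshold. It was -1.08 without OGD 2 and 3 (edgeR adjusted p = 0.9996) and -1.36 without Acacetin 1 and 3 (edgeR adjusted p = 0.0605). With the 18S share as a covariate it was -1.29 (edgeR adjusted p = 0.382). In none of these settings was Il1b called. DESeq2 called it lower at an adjusted p of 1.02e-06 and voom with quality weights at 0.00247. From Control to OGD it rose by 1.31 ± 0.19 on the log2 scale (edgeR adjusted p = 0.000295); that comparison uses the same OGD libraries, so the 2 fold changes are not independent.

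Il1b was the only 1 of 17 tested genes of interleukin-1 and the inflammasome at an unadjusted p under 0.05. That is 5.88% of the list, near the 5.17% of all genes. The median log2 fold change of that list was -0.13, and 0.02 without OGD 2 and 3, against -0.02 and 0.08 over all genes. Nlrp3, the sensor of the best-studied inflammasome, averaged 25.2 ± 4.28 CPM in OGD against 23.1 ± 3.61 CPM in Acacetin (SD, n = 4 each; log2 fold change -0.13 ± 0.15, SE). Casp1, the protease that cuts the precursor, averaged 14 ± 4.84 and 11.8 ± 4.66 CPM in the same order. Il1rn, which encodes the receptor antagonist, averaged 230 ± 24.5 and 202 ± 45.7 CPM, and Il1a, the other interleukin-1 agonist, 2.29 ± 0.66 and 2.16 ± 1.31 CPM. Nlrp3, Casp1, Il1rn and Il1a were picked for their roles, after their values were seen. By the naming rule, Nlrc4, a sensor of bacterial flagellin, had a log2 fold change of 0.53 ± 0.36 (SE), and Il1r2, the decoy receptor, of -0.43 ± 0.30 (SE), each with overlapping libraries.

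Of the 10 named genes with the smallest p lower in Acacetin, 3 belonged to the interferon list (Isg15, Xaf1 and Usp18), and Apol9a, Apol9b, Isg20 and Parp12 are known to be induced by interferon though not on it. Isg15 and Apol9a were those with the smallest p whose promoters hold the core of the interferon-stimulated response element, and their promoters are shown for that reason. The sequences are from RefSeq on build GRCm38.p6, an older build than the GRCm39 that the submitters' processing notes name, and run from 250 bases before the gene start to 50 after it, on the gene's own strand. Capitals mark the core GAAANNGAAA on either strand, where overlapping matches join into a single run. The Isg15 promoter lies at chr4:156200769-156201068, minus strand, and that of Apol9a at chr15:77411031-77411330, minus strand.
Isg15: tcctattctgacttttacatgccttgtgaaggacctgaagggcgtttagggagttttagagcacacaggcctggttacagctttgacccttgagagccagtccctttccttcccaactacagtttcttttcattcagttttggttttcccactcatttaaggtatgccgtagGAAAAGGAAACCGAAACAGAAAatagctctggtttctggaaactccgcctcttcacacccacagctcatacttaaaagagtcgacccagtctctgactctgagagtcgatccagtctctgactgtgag
Apol9a: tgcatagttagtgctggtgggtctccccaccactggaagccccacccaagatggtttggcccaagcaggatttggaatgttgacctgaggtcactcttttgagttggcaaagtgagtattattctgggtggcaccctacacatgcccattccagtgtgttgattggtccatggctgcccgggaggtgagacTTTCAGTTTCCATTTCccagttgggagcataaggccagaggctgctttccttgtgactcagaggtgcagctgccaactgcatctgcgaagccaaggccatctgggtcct
The Isg15 promoter holds 3 overlapping matches and that of Apol9a holds 2, both on its reverse strand. The same core was found in 3.99% of the 27025 genes with a promoter in the table, in 3.82% of the 9714 tested genes with one, and in 20 of the 35 tested interferon genes with one (57.1%). Of the 16 interferon genes with a promoter and an unadjusted edgeR p under 0.05, 7 held it (43.8%), a lower share than in the whole list. Among the 10 genes with the smallest p lower in Acacetin, 9 had a promoter in the table and 3 held the core (33.3%): Isg15, Apol9a and Apol9b. Apol9a and Apol9b are close copies. A match is a run of letters, not a measured binding site.

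Isg15 (ENSMUSG00000035692.8, chromosome 4) encodes a ubiquitin-like protein that interferon induces. It stood at 89.2, 113, 121 and 91.7 CPM in OGD 1 to 4 and at 60.1, 42.7, 31.9 and 32 CPM in Acacetin 1 to 4. The groups did not overlap, and Acacetin 1 was the highest of its group. The log2 fold change was -1.31 ± 0.22 (SE; edgeR adjusted p = 0.128), and the Acacetin mean of 41.7 ± 13.3 CPM was close to the Control mean of 42.3 ± 11.5 CPM (SD, n = 4 each). Without Acacetin 1 and 3 it was called lower by edgeR at an adjusted p of 0.0273, with a log2 fold change of -1.47. Without OGD 2 and 3 the fold change was -1.09, and Isg15 was not called (edgeR adjusted p = 0.9996). With the 18S share as a covariate it was also not called (-1.35, edgeR adjusted p = 0.382). Usp18 (ENSMUSG00000030107.11, chromosome 6), the protease that removes ISG15 from proteins and dampens interferon receptor signalling, stood at 142, 199, 190 and 146 CPM in OGD and at 103, 95.2, 71.4 and 72.5 CPM in Acacetin. Again no libraries overlapped; the log2 fold change was -0.98 ± 0.19 (SE; edgeR adjusted p = 0.182), -0.71 without OGD 2 and 3 and -1.01 without Acacetin 1 and 3.

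Apol9a (ENSMUSG00000057346.13, chromosome 15), an apolipoprotein L gene, had a larger fold than Isg15 and Usp18. Its levels were 17.5, 34.3, 36.6 and 26.4 CPM in OGD and 9.45, 9.78, 6.76 and 6.14 CPM in Acacetin, 3.57-fold higher in OGD on average, with a log2 fold change of -1.83 ± 0.29 (SE; edgeR adjusted p = 0.0686). OGD 2 and 3, the libraries rich in 18S, were its 2 highest, and without them the fold change was -1.42. Without Acacetin 1 and 3 it was -1.84. The Acacetin mean of 8.03 ± 1.85 CPM was higher than the Control mean of 2.90 ± 1.17 CPM (SD, n = 4 each; edgeR adjusted p = 0.00287, in a comparison where 26.9% of all genes were called). Apol9b, its neighbour and close copy on the same chromosome, stood at 14.9, 26.7, 29.5 and 23.6 CPM in OGD and 8.31, 10.3, 7.17 and 4.94 CPM in Acacetin. Reads of these 2 copies could be split between them by the counting, so their separate levels are uncertain. OGD 2 and OGD 3 were also the 2 highest OGD libraries for Apol9b, Il1b, Id3, Isg15, Isg20, Usp18 and Xaf1, but not for Parp12 or Ap1m2.

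Isg20 (ENSMUSG00000039236.19, chromosome 7), a 3′ to 5′ exonuclease that degrades RNA, stood at 26.6, 36.3, 34.2 and 28.9 CPM in OGD and at 20.9, 14.6, 11.3 and 12.1 CPM in Acacetin. Its log2 fold change was -1.10 ± 0.19 (SE; edgeR adjusted p = 0.136), -0.88 without OGD 2 and 3 and -1.23 without Acacetin 1 and 3. In Control it averaged 29.8 ± 3.72 CPM (SD, n = 4), close to OGD, so the Acacetin libraries lay below both other groups. Xaf1, which binds and antagonises the apoptosis inhibitor XIAP, averaged 34.1 ± 4.54 CPM in OGD against 17.5 ± 3.90 CPM in Acacetin (SD, n = 4 each), with no overlap. Parp12, a mono-ADP-ribosyltransferase of the interferon response, averaged 60.5 ± 6.38 and 36.1 ± 3.13 CPM, also with no overlap. The log2 fold changes were -0.96 ± 0.18 for Xaf1 and -0.75 ± 0.14 for Parp12 (SE). Serpina3f and Serpina3g, serine protease inhibitor genes of a cluster of close copies, averaged 3.94 ± 1.55 and 4.03 ± 0.99 CPM in OGD and 1.42 ± 0.31 and 1.60 ± 0.69 CPM in Acacetin (SD, n = 4 each), and their separate levels are uncertain for the same reason.

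Of the 45 tested members of the interferon list, 20 had an unadjusted p under 0.05, all 20 lower in Acacetin, against 3.25% of all genes in that direction. For 16 members no Acacetin library reached any OGD library, against 1.88% of all genes, and 0 members showed the reverse. In all, 33 members were lower and 12 were higher, with log2 fold changes from -1.73 to 1.38. The mean log2 CPM of the list overlapped between the groups. OGD 1 to 4 had 2.943, 2.922, 3.284 and 3.493, against 2.071, 2.597, 3.18 and 2.758 for Acacetin 1 to 4. The median log2 fold change was -0.42, against -0.02 over all genes. It was -0.32 without OGD 2 and 3, -0.52 without Acacetin 1 and 3, and -0.41 after removal of the length trend; on FPKM it was -0.08, where all genes stood at 0.16. DESeq2 called 7 members lower and voom with quality weights 6, where they called 0.262% and 0.211% of all genes lower. The list was written with earlier results of these data known.

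Members of the list differed by level. Irf7, the transcription factor that sustains the interferon loop, stood at 227, 214, 229 and 234 CPM in OGD and at 177, 116, 87.9 and 114 CPM in Acacetin (log2 fold change -0.87 ± 0.18, SE). Dhx58, a helicase that regulates RNA sensing, stood at 23.6, 25.2, 25 and 21.9 CPM against 19.1, 13.1, 10.7 and 14.4 CPM. In both genes the OGD libraries were tight and Acacetin 1 was the highest of its group. Cmpk2, a mitochondrial nucleotide kinase, averaged 8.43 ± 1.69 and 3.69 ± 0.48 CPM (SD, n = 4 each). Oas1a, an antiviral oligoadenylate synthetase, averaged 248 ± 32.5 and 185 ± 75.0 CPM with overlapping libraries. Irf9, a transcription factor of the interferon response, averaged 46.5 ± 3.64 and 31.5 ± 4.88 CPM with no overlap (log2 fold change -0.56 ± 0.14, SE). The cytosolic RNA sensors Ifih1 and Ddx58 had log2 fold changes of 0.71 ± 0.69 and 0.13 ± 0.56 (SE). The genes in this paragraph lie outside the naming rule and were chosen after their values were seen.

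**Figure D3:**
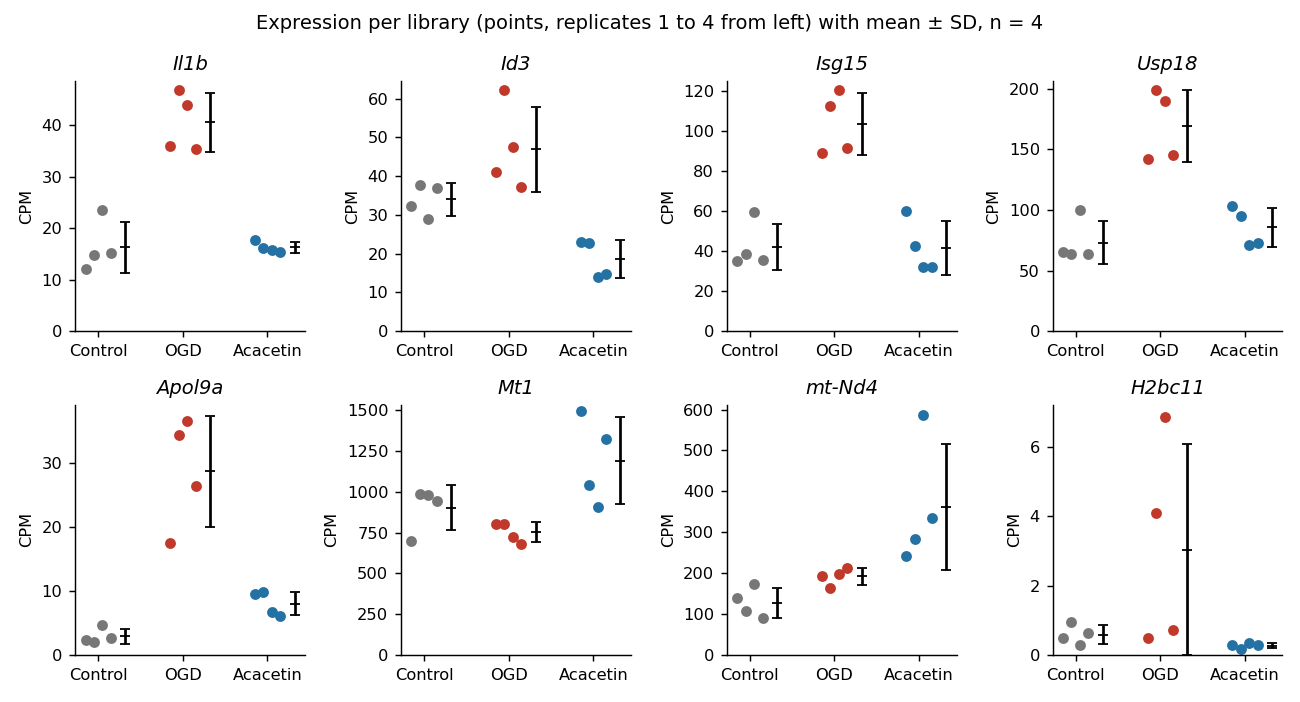
CPM per library (points, replicates 1 to 4 from left to right in each group) with the mean ± SD of 4 libraries for 8 genes in Control, OGD and Acacetin. For Il1b, Id3, Isg15, Usp18 and Apol9a all Acacetin points lie below all OGD points, Mt1 and mt-Nd4 show the reverse, and for H2bc11 OGD 2 and OGD 3 stand far above the rest.

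Compared with Control, 13 of the 45 interferon genes rose in OGD and 1 fell (edgeR adjusted p under 0.05), where 16.2% of all genes rose and 12.6% fell. Among them were Isg15 (1.29 ± 0.22 on the log2 scale, SE), Usp18 (1.21 ± 0.19) and Xaf1 (0.50 ± 0.18). Irf7 (0.14) and Isg20 (0.08) were not among the genes that rose. Both comparisons hold the same 4 OGD libraries, so a level that happens to be high in OGD lowers the fold change here and raises it there.

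Id3 (ENSMUSG00000007872.4, chromosome 4) encodes an inhibitor of basic helix-loop-helix factors that is a target of BMP and TGF-β signalling. It stood at 41.0, 62.1, 47.5 and 37.1 CPM in OGD and at 22.9, 22.9, 14.1 and 14.8 CPM in Acacetin. All Acacetin libraries lay below all OGD libraries and below the Control mean of 34.0 ± 4.15 CPM (SD, n = 4). The log2 fold change was -1.33 ± 0.20 (SE; edgeR adjusted p = 0.0686) and -1.03 without OGD 2 and 3. Id1 and Id2, of the same family, were picked with their values known: Id1 averaged 20.2 ± 3.84 CPM in OGD against 8.99 ± 3.23 CPM in Acacetin (SD, n = 4 each), while Id2 averaged 35.9 ± 9.46 and 30.9 ± 3.72 CPM. Of the 22 tested genes of that list, 3 had an unadjusted p under 0.05, all lower, against 3.25% of all genes, and the median was -0.01, close to that of all genes. Ap1m2, a subunit of an epithelial clathrin adaptor, averaged 5.86 ± 1.12 CPM in OGD against 2.62 ± 0.49 CPM in Acacetin (SD, n = 4 each).

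Of 32 tested genes of inflammation and NF-κB, 7 had an unadjusted p under 0.05, all 7 lower in Acacetin, against 3.25% of all genes. In all 19 were lower, against 6953 of 13249 genes, and the median log2 fold change was -0.08, against -0.02. Icam1, a leukocyte adhesion molecule, stood at 109.6, 99.6, 101 and 102 CPM in OGD and at 84.4, 90.0, 66.2 and 72.4 CPM in Acacetin, with no overlap (log2 fold change -0.40 ± 0.12, SE; edgeR adjusted p = 0.733). Cd83, a surface marker of activated antigen-presenting cells, averaged 36.0 ± 3.67 and 27.7 ± 4.96 CPM, with overlap.

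Unlike for Il1b, the 2 groups overlapped for Tnf, Il6, Ccl2, Nos2, Ptgs2 and Arg1, other well-known cytokine and enzyme genes of microglial activation. Tnf stood at 499, 482, 442 and 385 CPM in OGD and at 586, 473, 325 and 432 CPM in Acacetin, and the log2 fold change was 0.01 ± 0.17 (SE). The order of the 2 groups turned with the setting. Il6, near 2 CPM, had a fold change of -0.00 ± 0.33, and Ccl2, a monocyte chemokine, averaged 873 ± 56.2 and 974 ± 145 CPM (SD, n = 4 each; 0.16 ± 0.17, SE). Nos2, inducible nitric oxide synthase, averaged 79.2 ± 33.7 and 63.5 ± 20.6 CPM. Ptgs2, cyclooxygenase 2, averaged 3.17 ± 1.40 and 5.88 ± 4.87 CPM, of which Acacetin 3 alone gave 12.6 CPM. Arg1, which competes for arginine, averaged 1.28 ± 1.77 and 1.74 ± 1.33 CPM. Standard errors of 0.17 for Tnf and Ccl2 leave differences of that order undetectable with 4 libraries a group. Differences well above the standard error can also go uncalled, as for Il1b in the edgeR fit (-1.32 ± 0.19, SE).

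Of 20 tested genes of antigen presentation, 6 had an unadjusted p under 0.05, all 6 lower in Acacetin, against 3.25% of all genes. In all 17 were lower, against 6953 of 13249 genes. The median was -0.29, and -0.19 without OGD 2 and 3, where all genes stood at -0.02 and 0.08. Tap1, a subunit of the peptide transporter, stood at 59.9, 56.6, 65.8 and 54.5 CPM in OGD and at 51.1, 40.7, 29.6 and 34.9 CPM in Acacetin, with no overlap. Its log2 fold change was -0.60 ± 0.15 (SE; edgeR adjusted p = 0.484), and DESeq2 called it lower at 0.0429. H2-Q4, a class Ib gene, averaged 21.8 ± 3.01 and 13.6 ± 2.22 CPM; its family shares sequence, so its reads are uncertain. H2-Aa, a class II chain, was near the limit of detection, at 0.881 ± 0.177 and 0.369 ± 0.0418 CPM (SD, n = 4 each).

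Complement genes had 4 of 11 tested members at an unadjusted p under 0.05, 3 lower and 1 higher, against 3.25% and 1.92% of all genes, with a median of -0.39. Itgax, the CD11c subunit of complement receptor 4, stood at 31.9, 35.1, 33.6 and 40.5 CPM in OGD and at 21.8, 23.9, 22.3 and 26.0 CPM in Acacetin. Its groups did not overlap (log2 fold change -0.59 ± 0.13, SE; edgeR adjusted p = 0.288), and the fold change was -0.58 without OGD 2 and 3 and -0.50 without Acacetin 1 and 3. C1qa, the A chain of C1q, and C2 stayed under 2 CPM in every library, with log2 fold changes of -1.62 ± 0.61 and 0.73 ± 0.28 (SE).

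Of 22 tested genes of microglial identity, 5 had an unadjusted p under 0.05, 4 lower and 1 higher, against 3.25% and 1.92% of all genes, and the median was -0.20 (-0.07 without OGD 2 and 3). Csf1r, the receptor for the survival factor CSF1, stood at 132, 159.6, 139 and 146 CPM in OGD and at 105, 120.4, 85.9 and 90.7 CPM in Acacetin, with no overlap (log2 fold change -0.52 ± 0.14, SE; edgeR adjusted p = 0.650). Aif1, which encodes IBA1, averaged 11.8 ± 2.98 and 7.16 ± 1.98 CPM, and Cd33, a sialic acid receptor, 50 ± 1.92 and 40.1 ± 3.13 CPM (SD, n = 4 each). Spp1, osteopontin, was the member higher at that p, with 650, 523, 638 and 818 CPM in OGD and 514, 898, 1722 and 1578 CPM in Acacetin; it was chosen after its values were seen.

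Mt1, a metallothionein gene, had the smallest p in the higher direction among genes that averaged 2 CPM or more and carry no model name. The gene (ENSMUSG00000031765.9, chromosome 8) stood at 804, 805, 723 and 679 CPM in OGD and at 1493, 1043, 905 and 1322 CPM in Acacetin. Every Acacetin library lay above every OGD library, with a log2 fold change of 0.66 ± 0.18 (SE; edgeR adjusted p = 0.656). Mt2, its neighbour on chromosome 8, stood at 515, 615, 549 and 434 CPM against 1042, 775, 664 and 856 CPM, also without overlap (0.66 ± 0.20, SE). Without OGD 2 and 3 the fold changes were 0.73 for Mt1 and 0.86 for Mt2. Without Acacetin 1 and 3 they were 0.65 and 0.63. DESeq2 called Mt1 higher at an adjusted p of 0.00912. The Control means were 903 ± 137 CPM for Mt1 and 819 ± 204 CPM for Mt2 (SD, n = 4 each), between the other groups for Mt1 and close to Acacetin for Mt2.

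The promoters of both metallothionein genes are shown with the core of the metal response element, TGCACNC or TGCGCNC on either strand, in capitals. They are from RefSeq on GRCm38.p6, at chr8:94178839-94179138 for Mt1 and chr8:94172368-94172667 for Mt2, both plus strand.
Mt1: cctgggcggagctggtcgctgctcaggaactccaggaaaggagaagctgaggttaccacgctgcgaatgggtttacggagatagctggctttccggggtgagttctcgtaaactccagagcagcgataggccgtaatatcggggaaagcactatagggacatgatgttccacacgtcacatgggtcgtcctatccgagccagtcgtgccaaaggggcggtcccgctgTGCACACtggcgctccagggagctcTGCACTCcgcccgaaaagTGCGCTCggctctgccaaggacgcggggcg
Mt2: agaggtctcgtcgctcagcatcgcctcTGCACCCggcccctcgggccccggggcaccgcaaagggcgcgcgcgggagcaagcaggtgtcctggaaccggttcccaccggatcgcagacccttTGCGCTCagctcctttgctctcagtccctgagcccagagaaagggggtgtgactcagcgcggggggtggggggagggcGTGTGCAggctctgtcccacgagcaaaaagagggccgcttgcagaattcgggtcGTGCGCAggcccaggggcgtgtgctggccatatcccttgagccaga
Mt1 holds 3 matches and Mt2 holds 4. At least as many were found in 3.76% and 0.968% of the 9714 tested genes with a promoter in the table, where 40.0% held at least 1 match. None of the 6 genes with a promoter among the 10 with the smallest p higher in Acacetin held the interferon core.

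Transcripts encoded by the mitochondrial genome were higher in Acacetin as a list. Of 13 tested, 6 had an unadjusted p under 0.05, all 6 higher, against 1.92% of all genes, and 5 did not overlap, against 0.468%; the median was 0.51. It was 0.70 without OGD 2 and 3, 0.31 without Acacetin 1 and 3 and 0.61 after removal of the length trend. mt-Nd4, a subunit of respiratory complex I, stood at 194, 164, 197 and 213 CPM in OGD and at 243, 283, 587 and 334 CPM in Acacetin. Acacetin 3 was far above the rest, and the log2 fold change was 0.91 ± 0.26 (SE; edgeR adjusted p = 0.712). mt-Nd2, of the same complex, averaged 316 ± 24.3 and 510.2 ± 110 CPM, and mt-Co1, a catalytic subunit of complex IV, 1764 ± 355 and 2594 ± 402 CPM (SD, n = 4 each). Reads of the mitochondrial genome took 0.486% to 0.566% of reads in OGD and 0.667% to 1.27% in Acacetin. These are shares of all reads, and the 18S reads of OGD 2 (13.1%) and OGD 3 (21.3%) lower them there. With TMM-scaled library sizes the mean log2 CPM of the list overlapped between the groups. OGD 1 to 4 had 5.287, 5.143, 5.531 and 5.005, against 5.612, 5.494, 6.105 and 5.445 for Acacetin 1 to 4. How much of the gap in shares came from 18S was not tested. Acacetin 3 had both the highest mitochondrial share and the highest length slope of the 8 libraries; the part of that slope in the result was not tested beyond the values given.

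Scd2, a fatty acid desaturase under SREBP control, stood at 71.2, 36.1, 53.1 and 80.1 CPM in OGD and at 78.8, 86.1, 111 and 142 CPM in Acacetin. OGD 4 overlapped the Acacetin range, and the lowest value was OGD 2; the log2 fold change was 0.79 ± 0.23 (SE) and 0.53 without OGD 2 and 3. Of 24 tested cholesterol and SREBP genes, 22 were higher in Acacetin, against 6296 of all 13249, with a median of 0.26, but only Scd2 had an unadjusted p under 0.05. The other genes with the smallest p in this direction were low in level or modest in fold: Galnt11, which starts O-glycosylation, averaged 6.15 ± 0.73 and 9.30 ± 1.92 CPM, Setd7, a lysine methyltransferase, 23.6 ± 5.77 and 35.1 ± 8.45 CPM, and Shpk, sedoheptulokinase, 1.19 ± 0.25 and 2.08 ± 0.54 CPM (SD, n = 4 each). Fbxl4, Ankdd1a, Ccdc122 and Jpx had log2 fold changes between 0.68 and 0.96.

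Among 25 tested hypoxia genes, 18 were higher in Acacetin, against 6296 of all 13249. The median was 0.17, and 0.11 without OGD 2 and 3, where all genes stood at -0.02 and 0.08. At an unadjusted p under 0.05 there were 2, both higher, or 8% of the list, near the 5.17% of all genes. Egln3, the prolyl hydroxylase that HIF induces, averaged 48.7 ± 13.3 and 68.7 ± 21.5 CPM, and Bnip3, a mitophagy receptor, 26.5 ± 13.4 and 45.4 ± 21.6 CPM (SD, n = 4 each), both with overlap. Without OGD 2 and 3 the Bnip3 fold change went from 0.77 to 0.33. Bnip3l, its relative, had 0.52 ± 0.26 (SE), and Vegfa averaged 15.9 ± 1.27 and 17.6 ± 2.72 CPM. Among 25 NRF2 genes 1 was lower, Osgin1 (-0.35 ± 0.15, SE), and 1 higher, the cystine transporter Slc7a11 (0.65 ± 0.29), at an unadjusted p under 0.05, near the 5.17% of all genes, with a median of 0.04. Hmox1, heme oxygenase 1, averaged 488 ± 69.9 and 581 ± 158 CPM (SD, n = 4 each; 0.25 ± 0.20, SE). Of 9 tested targets of the aryl hydrocarbon receptor, a receptor that binds many flavones, 1 had an unadjusted p under 0.05: Cyp1a2, lower and under 2 CPM. Nqo1, shared with NRF2, had 0.56 ± 0.29 and Nfe2l2, which encodes NRF2, 0.81 ± 0.43 (SE).

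Several of the largest folds belonged to RNAs that were high in OGD 2 and OGD 3 alone. Rmrp, the RNA of a ribonuclease that processes ribosomal RNA, stood at 1.52, 142, 298 and 1.40 CPM in OGD and at 1.76, 1.72, 2.72 and 11.8 CPM in Acacetin. OGD 1 and 4 lay below all Acacetin libraries, and the log2 fold change of -4.61 ± 1.41 (SE) became 1.69 without OGD 2 and 3. The 18S RNA itself went from -3.93 to 1.71 and Scarna2, a small Cajal body RNA, from -3.63 to 0.95. Snora73b, a small nucleolar RNA, went from -1.54 to -0.04. Of 7 tested genes of this list 6 had an unadjusted p under 0.05, all lower, against 3.25% of all genes, and the median went from -3.59 to 0.95.

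Replication-dependent histone genes, whose mRNAs lack a poly(A) tail, were also highest in OGD 2 and OGD 3. Of 22 tested, 14 had an unadjusted p under 0.05, all lower, against 3.25% of all genes. All 22 were lower, with a median of -1.44 that became 0.14 without OGD 2 and 3 and -0.51 with the 18S share as a covariate. H2bc11 stood at 0.474, 4.10, 6.87 and 0.715 CPM in OGD and at 0.285, 0.175, 0.330 and 0.291 CPM in Acacetin. The groups did not overlap, yet OGD 1 and 4 were close to the Acacetin range, and the log2 fold change went from -3.43 ± 0.75 (SE) to -1.07 without OGD 2 and 3. H3c1 went from -2.37 to -0.68, H4c4 from -2.93 to 0.15 and H1f3 from -1.41 to -0.16. The genes that DESeq2 called lower with all libraries included H2bc11, H3c1 and H4c4 (DESeq2 adjusted p = 0.0033, 0.0494 and 0.0448). The 46 ribosomal protein genes were all slightly lower (median -0.09), a sign that turned to 0.14 without OGD 2 and 3, where the median of all genes was 0.08, and to 0.18 on FPKM, where it was 0.16.

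**Figure D4:**
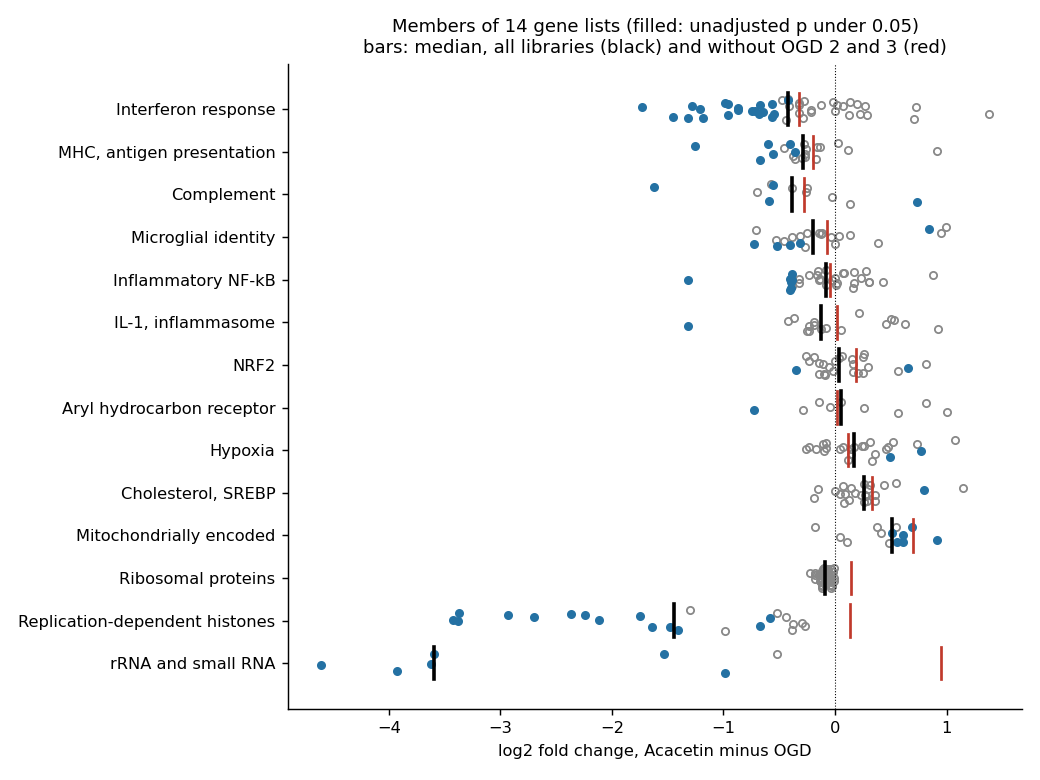
Log2 fold change of Acacetin minus OGD for the tested members of 14 gene lists (filled: unadjusted edgeR p under 0.05), with medians as bars for all libraries (black) and without OGD 2 and 3 (red). The interferon median stays below 0 in both (-0.42 and -0.32), the mitochondrial median above 0 (0.51 and 0.70), and the histone and small RNA medians cross 0.

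Over the 23 alternative settings run, 8 called at least 1 gene and 15 called none. Beside DESeq2 and voom these were no filter on low counts (8 genes, all lower, 0.0321%), the replicate number as a block (2, Id3 and Il1b, 0.0151%), the length trend removed (4 lower, 0.0302%), the length slope as a covariate (26 lower, 0.196%, and 6 higher, 0.0453%), no Acacetin 1 and 3 (4 lower, 0.0302%) and no Acacetin 1 (9 lower, 0.0679%). The 15 settings with no call included the 8 libraries alone, the 18S share as a covariate and no OGD 2 and 3. In all, 51 genes were called in at least 1 setting, 42 lower and 9 higher, and the 20 genes called in at least 3 settings were all lower. Il1b, Id3, Isg15 and Isg20 were called in 7 settings each and Ly6a in 6. Ly6a encodes the surface protein Sca-1, another interferon-induced gene, chosen after its values were seen. Apol9a and Irf7 were called in 5. Il1b kept its direction in all 23 settings, with log2 fold changes from -1.41 to -0.93, and so did Isg15, from -1.61 to -1.05. Mt1 was called higher in 2 settings.

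**Figure D5:**
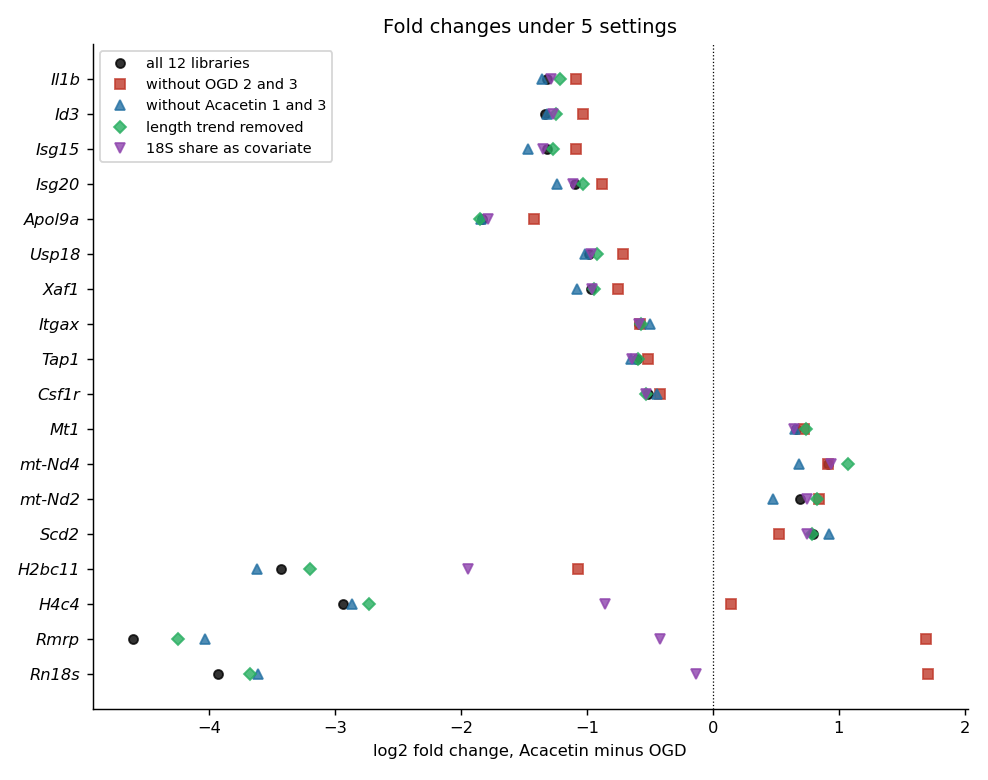
Log2 fold change of Acacetin minus OGD for 18 genes under 5 settings: all 12 libraries, without OGD 2 and 3, without Acacetin 1 and 3, length trend removed, and 18S share as a covariate. Il1b, Id3 and the interferon genes lie below 0 in each of the 5, while H4c4, Rmrp and Rn18s cross 0 without OGD 2 and 3.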

How the data were processed

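RNA sequencing libraries of BV2 cells were made from total RNA with a stranded mRNA kit and read as pairs, per the labels' protocols. The deposited table holds raw read counts per gene for 24934 genes, and a second deposited table, from the authors, holds FPKM (fragments scaled by length and depth) for 24728. Tools named in the submitters' processing notes are HISAT2, bcl2fastq and DESeq2, with build GRCm39; the read counter, annotation release and strand setting are not given in the sources used here, so overlapping and antisense genes cannot be told apart. Chromosomes are from the deposited table, without positions.

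CPM values used TMM-scaled library sizes, except summed markers, which used all reads. Gene length was the one implied by the deposited counts and FPKM. Genes kept by filterByExpr (minimum count 10, total 15) entered edgeR 4.0.16 (R 4.3.3): 1 quasi-likelihood fit of all 12 libraries with a mean per group, contrast Acacetin minus OGD, two-sided, Benjamini-Hochberg adjusted, threshold 0.05. The script was tested on simulated counts. Depth ran from 16427886 to 32693066 reads per library and sets only the counting error, since the labels give no molecular identifiers. Alternatives were DESeq2 1.42.0, limma 3.58.1 (voom with quality weights, and log2 FPKM with 1 or 0.1 added), other scalings and filters, length and 18S corrections (lowess span 0.5), the replicate block and leaving out libraries.

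Named genes were the 10 smallest p per direction with a mean of at least 2 CPM and no model or clone name, the 5 largest non-overlapping folds per direction among those with unadjusted p under 0.05, the 3 smallest p of each described list, and a panel of Isg15, Rn18s, Hmox1, Vegfa, Arg1, Il1b, Il6, Tnf, Ccl2, Ptgs2 and Nos2: 62 genes. The comparison, the 46 gene lists and the tests were chosen with earlier results of these data known.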

Additional observations from a re-analysis of the deposited data

Results flagged for a closer look

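Among 130 groups of 4 libraries checked, 3 held a library far from the other 3, where chance marks about 1 in 20. Rmrp was at 11.8 CPM in Acacetin 4, against 1.72 to 2.72 CPM in the other Acacetin libraries. Arg1 was at 3.92 CPM in OGD 1, against 0.0999 to 0.552 CPM in the other OGD libraries. Vegfa was at 17.8 CPM in OGD 4, against 15 to 15.5 CPM in the others. None of these genes had an adjusted p near the threshold in edgeR.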

How the results depend on the processing

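The number of genes called, 0, became 37 with DESeq2, 30 with voom and quality weights, 32 with the length slope as a covariate, 8 with no filter on low counts, 4 with the length trend removed, 4 without Acacetin 1 and 3 together, and 0 to 9 when single libraries were left out (9 without Acacetin 1); the cause was not tested. The 685 genes at an unadjusted p under 0.05 became 3148 with voom, 1424 with no filter, 1184 with the length slope, 409 with only the 8 libraries, 312 without OGD 2 and 3, and 400 to 2731 when single libraries were left out (400 without OGD 3, 410 without OGD 2, 1405 without OGD 4, 2731 without Acacetin 1). With the replicate block, 2 genes were called (Id3 and Il1b) and 844 had an unadjusted p under 0.05. Same-numbered libraries correlated by 0.308, 0.316, -0.118 and 0.38 in their deviations, and not every library correlated best with its own number. The highest value was 0.692, for Acacetin 3 with OGD 4, the libraries with the highest length slopes of their groups (0.296 and 0.172). The deviations carry that length trend, so these values cannot show whether the numbers mark pairs. The main fit left the numbers out.

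Of 62 named genes, 54 kept their sign in every setting. Without OGD 2 and 3, Rn18s became 1.71, Rmrp 1.69, Scarna2 0.95, H4c4 0.147 and Arg1 -0.321; Arg1 ranged from -0.0409 to 2.09 when single libraries were left out. Nos2 became 0.00188 and 0.0148 on FPKM with 1 and 0.1 added. Tnf became -0.00459 with the replicate block, -0.0585 with voom and -0.0394 with the 18S covariate, and ranged from -0.141 to 0.137 when single libraries were left out. Il6 became 0.060 with DESeq2, 0.0544 with its size factors, 0.0694 with no filter, 0.0828 with 8 libraries, 0.0877 with voom, 0.127 and 0.172 on FPKM, 0.142 with the length trend removed, 0.145 with the 18S covariate, 0.0832 without ribosomal RNA genes, 0.302 without OGD 2 and 3, and 0.0295 without Acacetin 1 and 3, and ranged from -0.265 to 0.238 when single libraries were left out.

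With 4 libraries a group and depths down to 16427886 reads, differences within the standard errors given were not detectable. Differences well above them also went uncalled: Il1b, at -1.32 ± 0.19 (SE), had an edgeR adjusted p of 0.0686. A gene without a call is not shown to be equal.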

Other observations

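The other 27 lists with at least 5 tested genes had median log2 fold changes from -0.19 (immediate early genes) to 0.26 (cholesterol). At most 18.75% of their tested members had an unadjusted p under 0.05, against 5.17% of all genes. Among them were glycolysis, heat shock, the unfolded protein response, DNA replication, mitosis and p53 targets. By biotype, 364 of 11479 protein-coding genes had an unadjusted p under 0.05 and were lower in Acacetin and 206 were higher. Of 1039 lncRNA genes the numbers were 38 and 35, and of all 13249 genes they were 431 (3.25%) and 254 (1.92%). In the shortest quartile of genes 5.07% were lower and 1.39% higher at that p, and in the longest 1.42% and 3.23%.

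The 9 genes called higher in at least 1 setting included Acod1 and Mlycd, chosen after their values were seen. Acod1, which makes itaconate in activated macrophages, stood at 96.5, 82.7, 97.5 and 144 CPM in OGD and at 118, 132, 179 and 241 CPM in Acacetin. Its log2 fold change was 0.67 ± 0.22 (SE). OGD 4 overlapped the Acacetin range.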
